A study of Mus musculus with 36 samples.

Results

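BPA and EE2 were compared directly in the peri-ductal stroma of the fetal mouse mammary gland, with 6 arrays from BPA-exposed and 6 from EE2-exposed fetuses out of the 36 arrays of the series. The arrays were chosen by their labels alone as all stroma arrays of either exposure in both genotypes, 3 for each exposure and genotype. BPA (bisphenol A) is a plastic monomer that binds estrogen receptors weakly, and EE2 (ethinylestradiol) is a potent synthetic estrogen. Heterozygous C57BL/6 dams mated with heterozygous males received osmotic pumps at E8, with dimethylsulfoxide as the vehicle, set to release 250 ng BPA or 10 ng EE2 daily per kg of body weight, and glands of their female ERα(+/+) and ERα(−/−) fetuses were taken at E19. Compound and dose therefore differ together and cannot be told apart, and both genotypes developed in dams that carried a working ERα allele. The stroma close to the ducts was captured by laser in the fourth inguinal gland of the fetuses, and its RNA was amplified before it was hybridized to Affymetrix Mouse Genome 430 2.0 arrays. The methods give 3 independent litters for each exposure and genotype, so the 6 arrays of an exposure may come from as few as 3 dams, and p-values over arrays take no account of this.

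Peri-ductal stroma holds the fibroblasts and developing fat cells around the mammary duct. It receives estrogen through ERα before the epithelium does, and it directs ductal growth through secreted factors and through the matrix that it builds and degrades. Fat cells store triglyceride made from fatty acids that a short chain of enzymes synthesises, elongates and desaturates, and that chain is a common readout of fat cell differentiation.

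The markers of the captured tissue were in place, and 4 arrays stood apart from the rest. In deposited linear signal units, the summed signal of 22 fibroblast markers was 46624 to 83235 over the 12 arrays and that of 13 adipocyte markers 46403 to 76162, against 1656 to 6350 for 24 epithelial markers. The brightest of these were the collagen gene Col1a2, with a mean of 11482, and the fat cell gene Car3, with a mean of 16181, while the epithelial keratin gene Krt8 averaged 158. The summed signal of 32 skeletal muscle genes was 55755 on ERα(+/+) EE2 replicate 2, 53406 on ERα(−/−) EE2 replicate 3 and 40199 on ERα(−/−) BPA replicate 1, but 436 to 1310 on the other 9 arrays. On those 3 arrays 27 of the 32 muscle genes lay above every one of the other 9, and these are called the muscle arrays below. ERα(+/+) BPA replicate 3 was dim, with a median signal of 14.6 against 24.5 to 44 on the other 11 arrays. Between the exposures, the log2 differences, BPA minus EE2, were 0.25 for the array median, −1.15 for the summed muscle signal and −0.14 for the Gapdh 3′ to 5′ ratio, a measure of RNA integrity. None passed the exact permutation test within genotype, two-sided over 400 arrangements, with p of 0.41, 0.445 and 0.62 and an adjusted p of 0.62 for each of the 3 measures. In ERα(−/−) the Gapdh ratio was 15.4 to 20.8 on the EE2 arrays and 9.24 to 9.91 on the BPA arrays, without overlap. In ERα(+/+) it was 6.01 to 11.1 after EE2 and 9.33 to 14.4 after BPA. The test averages these opposite differences, so its p does not show balance within a genotype. The same ratio of the actin gene was 0.61 to 1.30 over the 12 arrays.

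**Figure D1:**
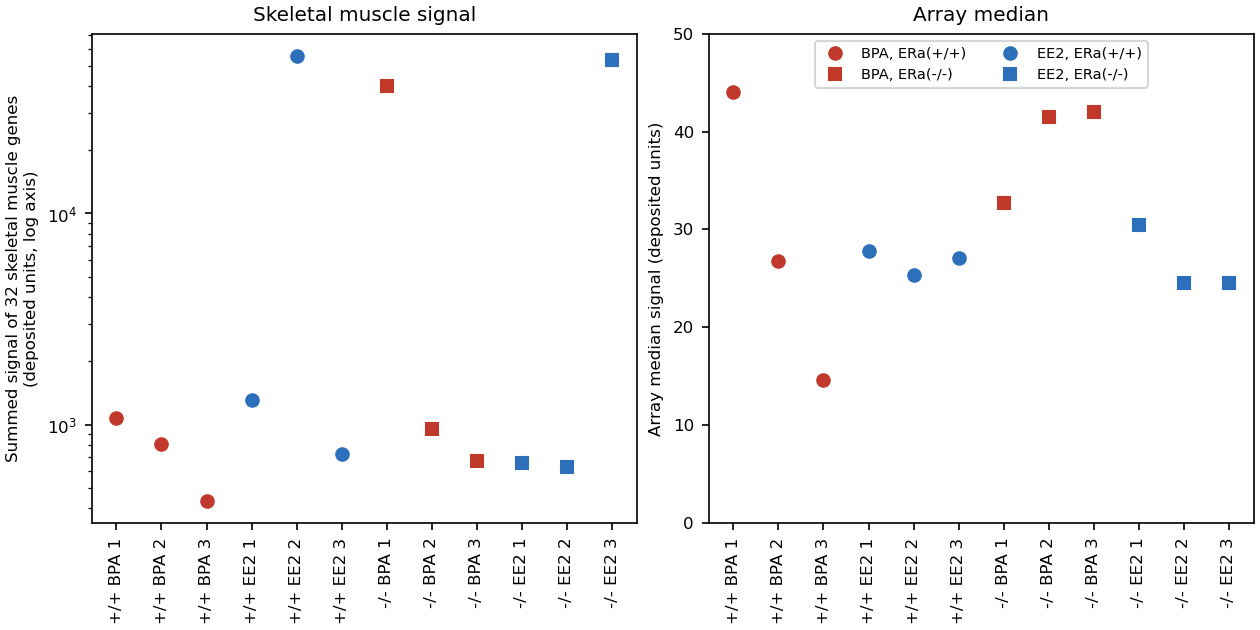
Left, summed signal of 32 skeletal muscle genes on a log axis, and right, median signal, for each of the 12 stroma arrays, in deposited units; circles are ERα(+/+), squares ERα(−/−), red BPA and blue EE2. On the left 3 arrays lie at 40199 to 55755 and 9 at 436 to 1310, and on the right the lowest array is ERα(+/+) BPA replicate 3, at 14.6.

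The gene that the knockout targets, Esr1, which encodes ERα, was dim at its 3 probe sets and its values overlapped between genotypes at each. At the probe set with the highest medians the signal was 39.2 to 172 (median 113) in the 6 ERα(+/+) arrays and 1.70 to 114 (median 51.7) in the 6 ERα(−/−) arrays. Where these probe sets lie relative to the disrupted part of the gene is not known here, so they are no check of the genotype labels. The difference of Esr1 between the exposures was −0.58 ± 0.90 (SE) on the log2 scale at this probe set.

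No probe set differed between BPA and EE2 stroma at an adjusted p under 0.05. The fit was limma with genotype as a covariate and Benjamini-Hochberg adjustment over 45037 probe sets, of which 0% were called, and the smallest adjusted p was 0.364. At an unadjusted p under 0.05, 1628 probe sets were higher after BPA (3.61%) and 380 were lower (0.844%), which together are 2008 probe sets, under 5% of those tested. Of these 2008, 81.1% were higher after BPA. The median difference of all probe sets was 0.14 on the log2 scale, and quantile normalization, which takes that shift out, gave 1086 higher and 967 lower (52.9% higher). Centring each array on its median gave 44.9% higher. Without the 3 arrays of high muscle signal, 1859 probe sets had a p under 0.05, of which 957 also had one over all 12 arrays (47.7% of the first list and 51.5% of the second). The 6 BPA arrays lay wholly above or below the 6 EE2 arrays at 90 probe sets (0.2%), 71 of them higher after BPA and 19 higher after EE2. The differences of named genes below are therefore measurements that did not pass the test across all probe sets. Their adjusted p ranged from 0.793 to 0.9999.

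Genes for making, storing and breaking down fat had higher signals after BPA than after EE2 nearly throughout, by small amounts. Of 32 measured genes for fat storage and lipid handling, 31 had a difference above 0 over the 12 arrays, against 59.1% of all 18193 genes. Their median difference was 0.51 on the log2 scale, against 0.12 for all genes, each gene taken at its brightest probe set. An unadjusted p under 0.05 was reached by 4 of the 32 in the direction of BPA and by none in that of EE2, where the shares of all genes were 2.97% and 0.709%. Without the 3 arrays of high muscle signal the median was 0.41 against 0.06 for all genes, 29 of 32 differences were above 0, and 3 had a p under 0.05, all higher after BPA, where the shares of all genes were 2.55% higher and 0.835% lower. The median was 0.59 in ERα(+/+) stroma, against −0.13 for all genes there, and 0.34 in ERα(−/−) stroma, where all genes had 0.36, so the list did not stand above all genes in ERα(−/−). After quantile normalization it was 0.48, with 30 of 32 above 0. With the array median as a further covariate it was 0.14, against −0.05 for all probe sets.

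The 4 genes were Hcar1, Elovl6, Scd1 and Acaca. Hcar1, the lactate receptor through which fat cells restrain lipolysis, had a signal of 149 to 492 (median 264) after BPA and 23.0 to 131 (median 81.9) after EE2. Every BPA array was above every EE2 array, with a log2 difference of 2.00 ± 0.55 (SE), a 95% interval of 0.81 to 3.19 and an unadjusted p of 0.00305. Without the muscle arrays the difference was 1.80. The 6 vehicle arrays, which entered no test, had 3.8 to 120 (median 61.4) for Hcar1. They spread more widely for the others, with 1144 to 6775 for Scd1, 121 to 1078 for Acaca and 47.3 to 431 for Elovl6. Scd1, the desaturase that makes oleate, had 3446 to 7405 (median 5857) after BPA and 1406 to 4555 (median 2679) after EE2, a difference of 1.06 ± 0.43 with 2 arrays out of order. It was 1.22 without the muscle arrays, and the other Scd1 probe set gave 1.28. Acaca, which encodes acetyl-CoA carboxylase, the committed step of fatty acid synthesis, had 526 to 1165 (median 847) after BPA and 277 to 635 (median 455) after EE2. Its ranges overlapped, and the difference of 0.85 ± 0.39 became 0.52, with a p of 0.323, without the muscle arrays. Elovl6, which elongates palmitate, had 138 to 900 (median 295) after BPA and 39.6 to 220 (median 152) after EE2, a difference of 1.35 ± 0.57. It was 0.95, with a p of 0.176, without the muscle arrays, and its 3 probe sets ranged from −1.28 to 1.35. Fasn, the fatty acid synthase gene, was near these with 1.03 ± 0.52 and a p of 0.0681.

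The genes for later steps, of fat storage and breakdown, gave less even values. Dgat1, which encodes the enzyme of the last step of triglyceride synthesis, had 99.3 to 429 (median 183) after BPA and 11.7 to 161 (median 49.7) after EE2 at the probe set of its smallest p, a difference of 2.28 ± 0.61. At its brightest probe set the difference was 0.31 ± 0.51. The lipase genes Mgll and Lipe had 1.06 ± 0.55 and 0.24 ± 0.50. Abundant fat cell genes of this list had small differences, with 0.17 ± 0.34 for Fabp4, 0.16 ± 0.40 for Adipoq and 0.10 ± 0.37 for Lpl at their brightest probe sets. Plin2, which coats lipid droplets, was the 1 gene with a difference below 0, at −0.02 ± 0.47. At the probe set of Fabp4 that the study's own tables name, the signal was 477 to 2069 (median 876) after BPA and 469 to 1079 (median 554) after EE2, a difference of 0.63 ± 0.46 with a 95% interval of −0.37 to 1.63. Pparg, the master regulator of fat cell differentiation, had 435 to 2137 (median 1072) after BPA and 460 to 1519 (median 702) after EE2, a difference of 0.60 ± 0.49 with an interval of −0.46 to 1.66. Both intervals include 0. Among 21 adipogenic transcription factor genes the median difference was 0.19, and 0.0035 without the muscle arrays. Prdm16, a regulator of brown fat, was the 1 gene with a p under 0.05, at 1.51 ± 0.65, and had 1.30 with a p of 0.0991 without those arrays. Its 4 probe sets ranged from 0.10 to 1.51. The 12 brown fat genes had a median of 0.47, with 11 above 0, and of 0.65 without the muscle arrays. After quantile normalization it was 0.25, with 8 above 0. Among 22 genes for cholesterol synthesis and uptake 20 were above 0 with a median of 0.35 and no p under 0.05. The nearest to such a p was Scarb1, the receptor that takes up cholesterol from high-density lipoprotein, at 0.93 ± 0.43 with a p of 0.0504. Without the muscle arrays 17 of these 22 were above 0 with a median of 0.31, and after quantile normalization 18 were. Their median in ERα(−/−) was 0.36, as was that of all genes. Over the 12 arrays 59.1% of all genes were above 0 with a median of 0.12, and 2.97% had a p under 0.05 higher after BPA.

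**Figure D2:**
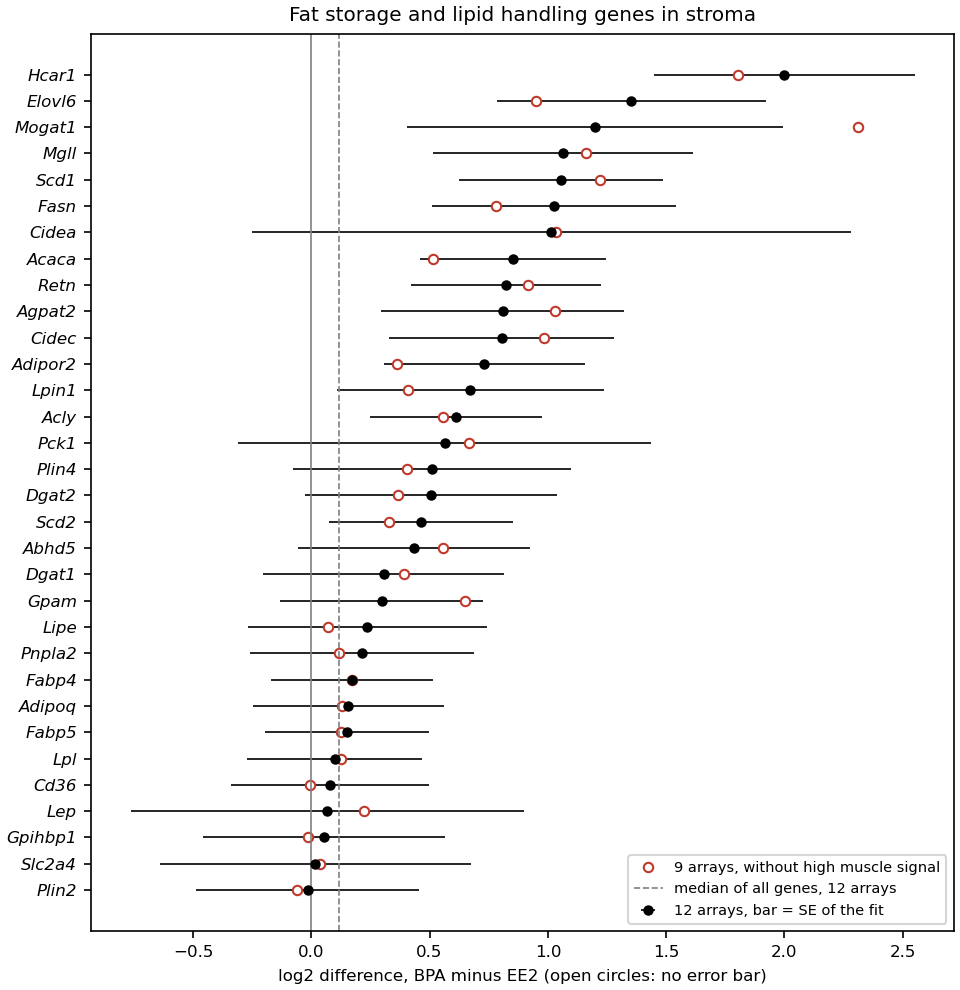
Log2 difference in signal, BPA minus EE2, of 32 fat storage and lipid handling genes in stroma, with black points and SE bars for all 12 arrays and open red points for the 9 arrays without high muscle signal; the dashed line is the median of all genes, 0.12. All black points but that of Plin2 lie above 0, and the largest is Hcar1 at 2.00.

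Promoter sequence from RefSeq (GRCm38.p6), from 250 bases before to 50 after the annotated start, was on hand for 22 of the 32 fat genes, in 26 windows. The windows of Hcar1, whose difference was the largest of the list, and of Elovl6 are shown, written 5′ to 3′ on the gene's strand, with capitals for matches to the motifs searched on both strands.
Hcar1, chr5:123879954-123880253, minus strand: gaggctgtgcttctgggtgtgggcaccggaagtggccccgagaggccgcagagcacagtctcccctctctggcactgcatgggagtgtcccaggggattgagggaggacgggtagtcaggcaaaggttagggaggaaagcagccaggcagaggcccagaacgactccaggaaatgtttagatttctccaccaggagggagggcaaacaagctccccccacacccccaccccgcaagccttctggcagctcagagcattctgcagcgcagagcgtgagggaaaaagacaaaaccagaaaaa
Elovl6, chr3:129532136-129532435, plus strand: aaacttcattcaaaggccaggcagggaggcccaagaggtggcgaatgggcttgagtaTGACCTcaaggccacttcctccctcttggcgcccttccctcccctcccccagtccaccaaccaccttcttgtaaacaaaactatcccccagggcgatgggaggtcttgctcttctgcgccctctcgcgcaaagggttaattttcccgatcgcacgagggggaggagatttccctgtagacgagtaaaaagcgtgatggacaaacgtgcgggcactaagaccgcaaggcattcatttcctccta
The full estrogen response element, GGTCA and TGACC with any 3 bases between them, was in none of the 26 windows and in 0.07% of all 32851 windows. The half-site AGGTCA was in 7 of 26 (26.9%), against 16.3% of all windows, and the Elovl6 window holds 1 on its minus strand. That half-site repeated with 1 base between the copies, the element that PPARγ binds with its partner, was in none of the 26 and in 0.0396% of all. The E-box CACGTG was in 3 of 26 (11.5%), against 7.15% of all.

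Among 22 genes for matrix proteases and their inhibitors, Mmp9 and Adamts5 had higher and Mmp7 lower signals after BPA at an unadjusted p under 0.05, with a median of 0.07 over the list. The shares of all genes with such a p were 2.97% higher and 0.709% lower. Mmp7, which encodes the small secreted protease matrilysin, had 0.90 to 5.6 (median 2.75) after BPA and 7.70 to 20.8 (median 15.8) after EE2. The exposures did not overlap, but each of these signals lies below the median signal of its array. The difference was −2.62 ± 0.50, with an unadjusted p of 1.68e-04, and −2.41 without the muscle arrays. With 16 added to each value before the log, which damps dim signals, the difference was −0.74. The 6 vehicle arrays had 6.6 to 22.2. Mmp9, which encodes gelatinase B, had 22.4 to 53 (median 39.9) after BPA and 1.60 to 18.2 (median 14.9) after EE2, again without overlap, and the difference was 1.85 ± 0.56, or 0.92 with 16 added. The vehicle arrays had 17.5 to 37.6 for Mmp9. Adamts5, an aggrecanase gene whose product also cleaves versican, had 357 to 1468 (median 542) after BPA and 89.7 to 668 (median 223) after EE2. Its difference of 1.52 ± 0.56 became 0.87, with a p of 0.197, without the muscle arrays, and its 4 probe sets ranged from −0.94 to 1.52.

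The counts of matrix genes with a p under 0.05 were near the shares of all genes, 2.97% higher and 0.709% lower, and are no result about the matrix. None of 28 matricellular and proteoglycan genes, 20 basement membrane genes or 34 focal adhesion genes did, with medians of 0.07, 0.01 and 0.22 over 12 arrays and of −0.13, −0.04 and 0.06 without the muscle arrays. Of 23 genes for fibrillar collagens and their cross-linking, only P4ha3, a subunit of a collagen prolyl hydroxylase, did, at 1.35 ± 0.61 over 12 arrays and 0.97, with a p of 0.222, without the muscle arrays. Tnc, which encodes the matrix protein tenascin, had 619 to 1851 (median 1112) after BPA and 937 to 1541 (median 1304) after EE2. The difference was −0.20 ± 0.42, with an interval of −1.10 to 0.70, and 0.02 without the muscle arrays. The same comparison gave −0.16 ± 0.51 for Vcan (versican), −0.08 ± 0.50 for Col5a3, 0.12 ± 0.45 for the cyclin gene Ccnd1 and 0.24 ± 0.38 for Trim29.

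Cell cycle genes of the S phase and mitosis list lay on opposite sides of 0 in the 2 genotypes, as did the medians of all genes. In ERα(+/+) 6 of 33 were above 0, against 7871 of all 18193 genes, with a median of −0.57 against −0.13. In ERα(−/−) 27 of 33 were, against 12945 of 18193, with 0.32 against 0.36. Over the 12 arrays 11 of 33 were above 0, against 59.1% of all genes, none had a p under 0.05, and their median was −0.12 over 12 arrays, −0.32 without the muscle arrays and 0.21 without the dim array. E2f3 and Orc1, which are not in that list, were named for their small p at a bright probe set. E2f3, a transcription factor that drives entry into S phase, had 96.3 to 238 (median 160) after BPA and 24.4 to 87.3 (median 38.3) after EE2. No array was out of order, and the difference was 1.82 ± 0.43, but −0.27 at the brighter of its 2 probe sets. The vehicle arrays had 33 to 443 for E2f3. Orc1, the largest subunit of the complex that marks replication origins, had 81.2 to 282 (median 205) after BPA and 3.90 to 112 (median 31.5) after EE2. Its difference was 2.76 ± 0.69, and 3.76 without the muscle arrays, while its other probe set gave 0.01. Btg2, an antiproliferative gene induced by p53 and by stress, had 101 to 218 (median 162) after BPA and 26.8 to 105 (median 53.7) after EE2, a difference of 1.45 ± 0.42. Its other probe set, with a mean signal of 91.5 against 109, gave 0.02. Btg2 was the 1 gene of 16 for cell cycle arrest with a p under 0.05. Of 35 stress and immediate early genes it and Hspa1a, which encodes an inducible heat shock protein, had such a p. Among all genes 2.97% had such a p higher after BPA and 0.709% lower, and counts this small are no result about these lists. Hspa1a had 16.6 to 99.3 after BPA and 0.60 to 17.4 after EE2, a difference of 3.41 ± 0.86 that became 1.34 with 16 added. Each EE2 value lay below the median signal of its array, and its near-identical copy Hspa1b may hybridize to the same probes. The median of that list was −0.12.

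**Figure D3:**
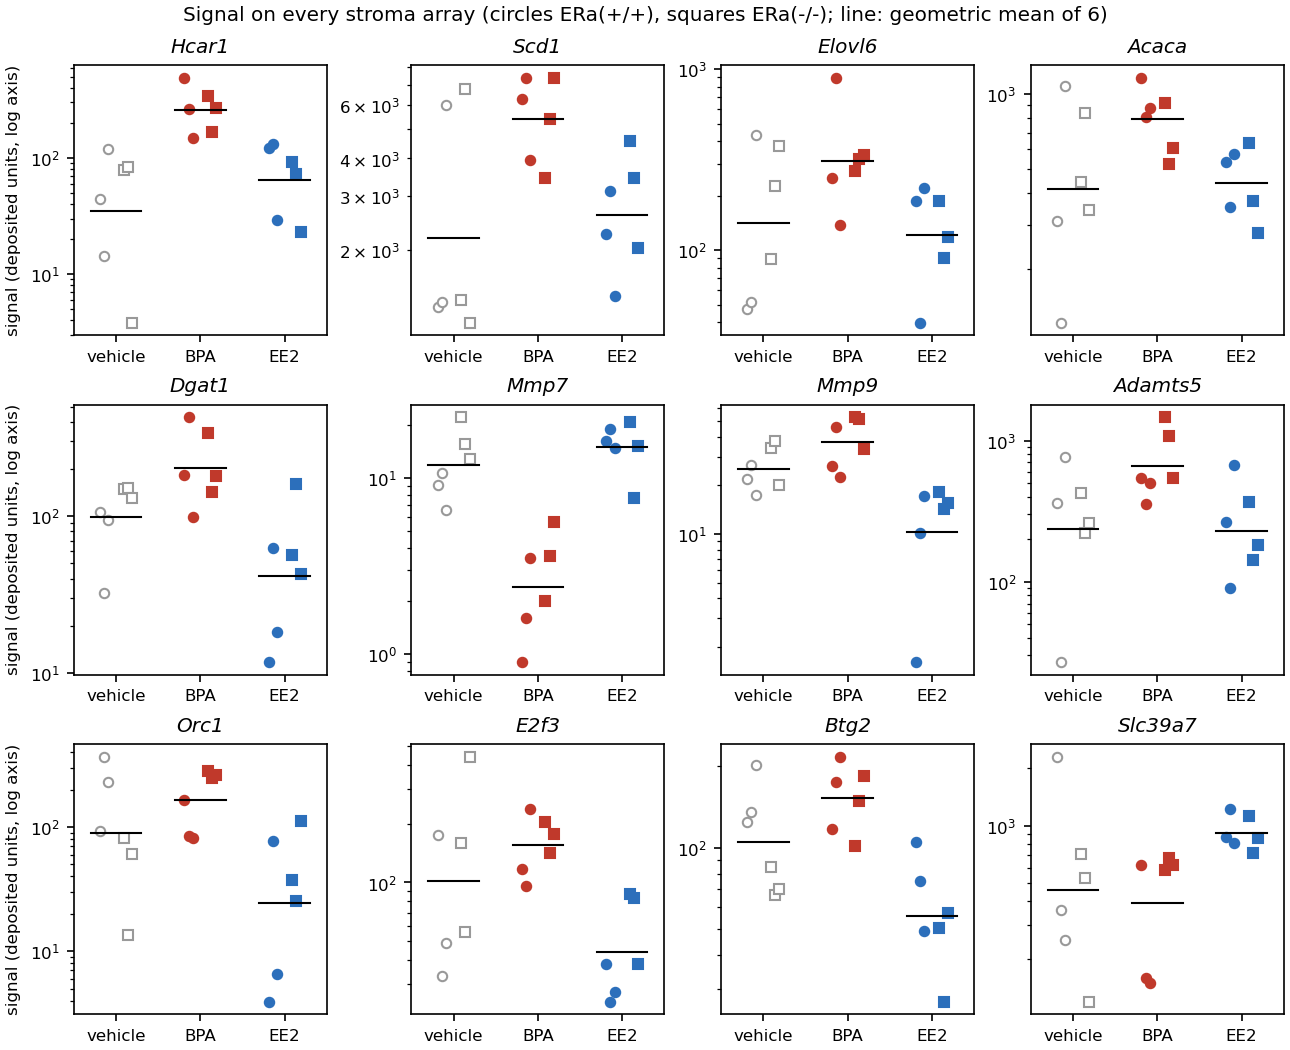
Signal of 12 genes, in deposited units on log axes, on every stroma array; circles are ERα(+/+), squares ERα(−/−), red BPA, blue EE2 and grey open points vehicle, which entered no test, and the line is the geometric mean of 6 arrays. The BPA and EE2 points do not overlap for Hcar1, Mmp7, Mmp9, E2f3 and Slc39a7.

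Which exposure had more bright genes depended on the scaling. With a mean signal of at least 100 in the higher exposure, a difference of at least 1 on the log2 scale and at most 1 array out of order, 130 genes were higher after BPA and 8 after EE2 on the deposited scale, 82 and 44 after quantile normalization, and 45 and 102 after centring each array on its median. The genes named here are those of the deposited scale. The 12 with the smallest p among the 130 had differences of 1.57 to 2.76 with limma p from 5.17e-04 to 0.00274. Of the 12, 6 showed no overlap, against 0.2% of all probe sets. The limit of at most 1 array out of order favours this, so it is no support for these genes. The 12 were 1700029I15Rik, S100a1, E2f3, Ccdc91, Rnf215, Orc1, Comtd1, Pccb, Cdc37l1, Llgl1, Dgat1 and Dbp. Pccb, a subunit of the mitochondrial propionyl-CoA carboxylase, had 142 to 526 (median 331) after BPA and 50 to 164 (median 84.0) after EE2, a difference of 1.80 ± 0.46. Llgl1, a cell polarity gene, had 168 to 479 (median 213) after BPA and 50.8 to 119 (median 89.3) after EE2, a difference of 1.57 ± 0.42. Dbp, a transcription factor gene driven by the circadian clock, had 58.0 to 220 (median 94.3) and 5.6 to 88.0 (median 22.5), a difference of 2.44 ± 0.66. S100a1, which encodes a calcium-binding protein, had 71.3 to 206 (median 117) and 9 to 72.0 (median 28.7), but its brighter probe set gave 0.61 in place of 2.18. The uncharacterised 1700029I15Rik had 213 to 1456 (median 424) and 60.8 to 146 (median 109). All 12 kept their direction and a p under 0.05 without the muscle arrays, with differences of 1.37 to 3.76. Of the 8 with several probe sets, however, 3 had one with a difference below 0, and for E2f3, Ccdc91 and Cdc37l1 it was the brightest. The 12 were picked for their p on these arrays, so their sizes are descriptions.

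The 8 genes with higher signals after EE2 were Ankrd35, Clcn3, Slc39a7, Ang, A430033K04Rik, Med20, Fam120aos and Tent4a, with differences of −2.63 to −1.10. Slc39a7, the zinc transporter ZIP7 of the endoplasmic reticulum, had 150 to 679 (median 602) after BPA and 720 to 1220 (median 867) after EE2. It was the 1 gene of the 8 without overlap, at −1.23 ± 0.48, and its lowest values were 158 and 150 on ERα(+/+) BPA replicates 2 and 3. The vehicle arrays had 119 to 2304 for Slc39a7. Clcn3, an endosomal chloride and proton exchanger, had 23.5 to 156 (median 71.2) after BPA and 130 to 257 (median 177) after EE2, a difference of −1.62 ± 0.55, with 5 probe sets from −1.62 to 0.82. Med20, a subunit of the Mediator complex, had 44.1 to 489 (median 258) and 331 to 1078 (median 406), a difference of −1.27 ± 0.58. Ang, the gene of the secreted ribonuclease angiogenin, had 50.5 to 124 (median 87.3) and 109 to 444 (median 161), a difference of −1.10 ± 0.45, but 0.07 at its brightest probe set. Of the 5 genes with several probe sets, 3 had one with a difference above 0, which for Ang was the brightest. Fam120aos and Tent4a did not reach a p under 0.05, at 0.0823 and 0.182. Without the muscle arrays all 8 kept their direction and 3 had a p under 0.05. The dim array, ERα(+/+) BPA replicate 3, was the lowest BPA array for Tent4a (1.6), Fam120aos (26.4) and Med20 (44.1). With each array left out in turn, the differences nearest 0 were −0.34 for Tent4a, −0.65 for Fam120aos and −0.84 for Med20.

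The smallest p of all named genes came from dim probe sets. Gm4432, a predicted gene, had 5 to 57.9 (median 38.7) after BPA and 1.60 to 3.70 (median 2.15) after EE2, a difference of 3.60 ± 0.61. Ascl2, a transcription factor gene of trophoblast and intestinal stem cells, had 5.70 to 89.6 (median 17.3) and 0.30 to 6.50 (median 1.15), a difference of 3.96 ± 0.68, and its other probe sets gave −0.02 at the lowest. Gm11346, also a predicted gene, had 0.60 to 1.20 (median 0.80) after BPA and 1.5 to 9.70 (median 4.65) after EE2, a difference of −2.52 ± 0.47. All but the BPA values of Gm4432 and Ascl2 lay well under the median signal of their arrays, and the adjusted p was 0.793 for each of these 3 and for Mmp7. With 16 added the differences were 1.37 for Gm4432, 1.06 for Ascl2 and −0.33 for Gm11346. On the 11 arrays without the dim ERα(+/+) BPA replicate 3, Gm4432 was the 1 probe set that passed, with 4.15 ± 0.41 and an adjusted p of 0.0187 in limma.

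Of the estrogen-responsive and receptor genes none of 28 and none of 15 had a p under 0.05, counts that are near the shares of all genes, 2.97% higher and 0.709% lower, and say nothing particular to these lists. The 28 estrogen-responsive genes had a median of 0.11, against 0.12 for all genes, and 16 of 28 were above 0. The 2 with the smallest p were Xbp1, a regulator of secretory capacity, with 833 to 1616 (median 1151) after BPA and 444 to 929 (median 685) after EE2, at 0.80 ± 0.39, and Gata3, at −1.36 ± 0.74 with signals of at most 32.9. The 15 genes for receptors that bind BPA or estrogen had a median of 0.24. Esrra and Esrrg, which encode estrogen-related receptors, were nearest at 0.99 ± 0.59 and 1.05 ± 0.66. None of 14 coregulator genes and none of 12 genes for steroid and xenobiotic metabolism had such a p, with medians of 0.20 and 0.11. With 6 arrays an exposure these intervals are wide, and that of Xbp1 ran from −0.04 to 1.64.

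Skeletal muscle markers, at −0.69, and erythroid markers, at −0.26, had the medians farthest from that of all genes, 0.12, among the lists of other cell types. The muscle median was −0.69, with 5 of 32 genes above 0, and −0.11 with 13 of 32 above 0 without the 3 arrays. Chrna1, the muscle acetylcholine receptor subunit gene, was the 1 muscle gene with a p under 0.05, with 0.90 to 23.2 after BPA and 2.10 to 66.1 after EE2, at −2.22 ± 0.93 over 12 arrays, −2.17 over 9 and −0.58 over 12 with 16 added. Over the 12 arrays no marker of epithelium (24 genes), keratinised epidermis (12), fibroblasts (22), endothelium (20), leukocytes (22) or smooth muscle and pericytes (12) had a p under 0.05, and their medians lay between −0.17 and 0.41. The 12 smooth muscle and pericyte markers, 9 of them above 0, had 0.41 over 12 arrays and 0.40 without the muscle arrays. Of 13 adipocyte markers all were above 0, against 59.1% of all genes, with a median of 0.17, and Scd1 alone had a p under 0.05. Without the muscle arrays 11 of the 13 were above 0. In ERα(+/+) 8 were, and in ERα(−/−) 10 were, with a median there of 0.22 against 0.36 for all genes. The summed adipocyte signal was 47925 to 76162 after BPA and 46403 to 64702 after EE2, and that of epithelium 1656 to 4255 and 1804 to 6350. In bulk RNA, fewer cells of a type and less RNA per cell cannot be told apart. Epor, the erythropoietin receptor gene, was the 1 of 9 erythroid genes with a p under 0.05, at −1.85 ± 0.76, in a list with a median of −0.26, and had −2.16 with a p of 0.050 without the muscle arrays. Cdh19, a Schwann cell precursor gene, was the 1 of 10 nerve genes, at 1.21 ± 0.42, and had a p of 0.0968 without the muscle arrays. In the remaining lists Hoxb9, a homeobox gene of the trunk mesenchyme, did so among 34 genes of mammary mesenchyme and inductive signals, at 2.04 ± 0.93, and Ndufs1, a subunit of respiratory complex I, among 33 genes of oxidative phosphorylation, at 1.15 ± 0.52. Without the muscle arrays neither did, with 1.96 and a p of 0.122 for Hoxb9 and 0.73 and a p of 0.206 for Ndufs1. None of 23 ribosomal protein genes did, with a median of 0.05. Of all genes 2.97% had a p under 0.05 higher after BPA and 0.709% lower, and single genes are no result about a list or cell type. What part muscle tissue on the arrays played in these differences was not tested beyond leaving the arrays out.

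**Figure D4:**
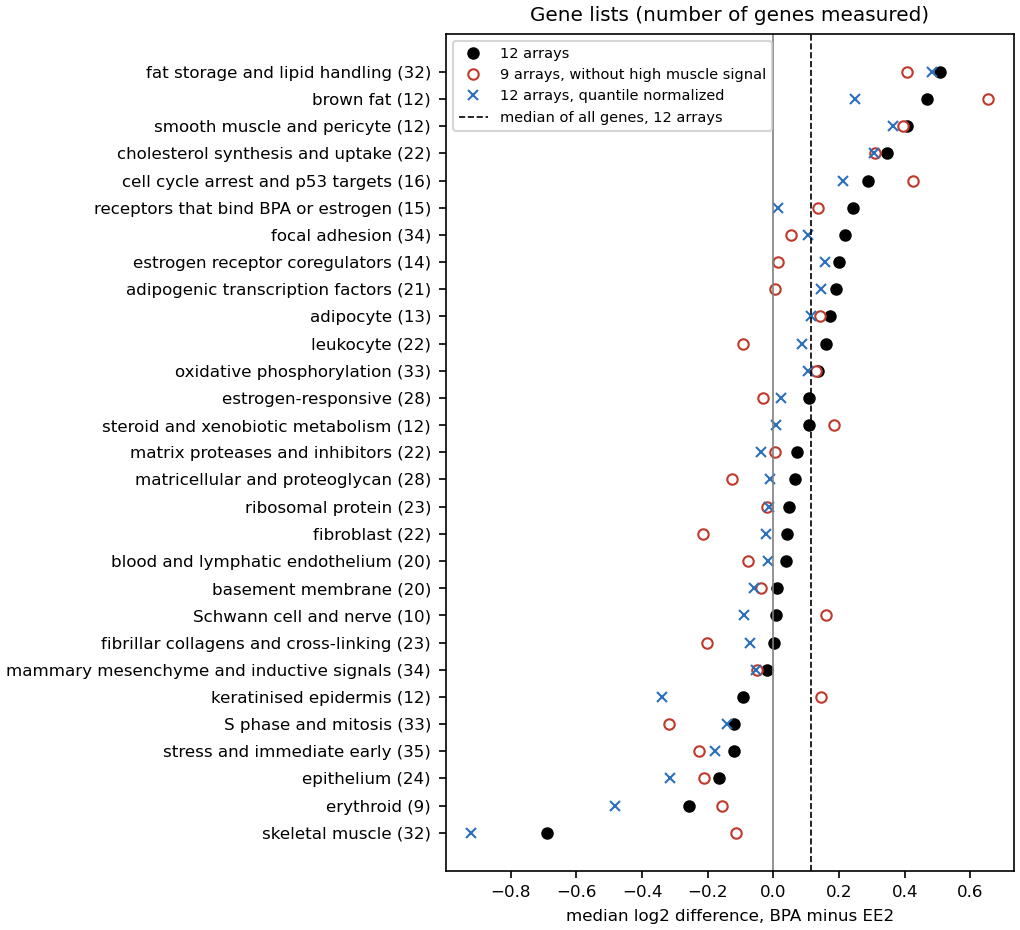
Median log2 difference, BPA minus EE2, of each gene list, with the number of genes measured; black points are all 12 arrays, open red points the 9 arrays without high muscle signal, blue crosses the 12 arrays after quantile normalization, and the dashed line the median of all genes, 0.12. Fat storage and lipid handling lies highest over the 12 arrays at 0.51, and skeletal muscle lowest at −0.69, moving to −0.11 without the 3 arrays, where brown fat (0.65) and cell cycle arrest (0.43) lie above fat storage (0.41).

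No probe set passed the test of whether the difference between BPA and EE2 depended on genotype. The limma contrast of ERα(+/+) with ERα(−/−) differences called 0 of 45037 probe sets, the smallest adjusted p was 0.764, and 4.84% had an unadjusted p under 0.05. The median difference of all probe sets was −0.12 in ERα(+/+), which holds the dim array, and 0.41 in ERα(−/−). At a p under 0.05, 1019 probe sets were higher and 1074 lower after BPA in ERα(+/+), and 1955 higher and 246 lower in ERα(−/−). In ERα(−/−) the array medians did not overlap either, with 32.7 to 42 after BPA and 24.5 to 30.5 after EE2. Nor did the Gapdh ratios there, with 9.24 to 9.91 and 15.4 to 20.8. What part these array measures played in the counts was not tested. Hcar1 differed by 1.79 ± 0.81 in ERα(+/+) and 2.21 ± 0.81 in ERα(−/−), and Mmp7 by −3.27 ± 0.69 and −1.97 ± 0.69. Scd1 differed by 1.41 ± 0.62 and 0.71 ± 0.62. Of the bright genes named above, the genotype contrast had its smallest unadjusted p, 0.00563, at Ccdc91, with 0.91 ± 0.57 in ERα(+/+) and 3.62 ± 0.57 in ERα(−/−). Its 6 signals after BPA were 58.7 to 76.1 in ERα(+/+) and 206 to 355 in ERα(−/−), while those after EE2 were 13.5 to 45.8 in both together.

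**Figure D5:**
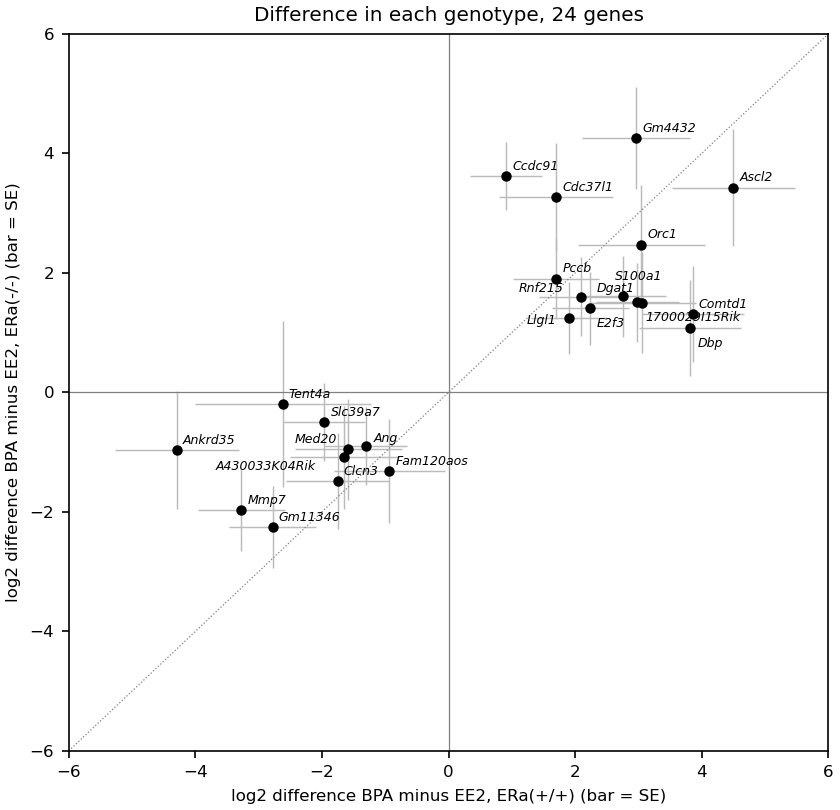
Log2 difference, BPA minus EE2, in ERα(+/+) stroma (horizontal axis) and in ERα(−/−) stroma (vertical axis), with SE bars, for the 24 genes named by their p over both genotypes; the dotted line marks equal differences. All 24 have the same sign in both genotypes, which the choice of genes by their joint difference favours. Ankrd35 lies farthest above the line, at −4.30 and −0.97, and Ccdc91 lies at 0.91 and 3.62.

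No probe set passed the test of whether the difference was particular to the stroma. The contrast of stroma with epithelium over the 24 BPA and EE2 arrays of both compartments called 0 of 45037 probe sets in limma, with a smallest adjusted p of 0.285 and 3.49% at an unadjusted p under 0.05. Both compartments were captured from the same gland, which this fit ignores. With arrays of the same genotype, exposure and number as a random block, limma called 0 as well. The smallest adjusted p was then 0.112, with 4.61% at an unadjusted p under 0.05. The epithelium arrays labelled ERα(−/−) BPA replicate 1 and ERα(−/−) EE2 replicate 3, like the stroma arrays of the same labels, had high summed muscle signals, 19386 and 29703. In the epithelium Scd1 differed by 1.42 and Acaca by 1.40, close to or above their values in stroma, while Hcar1 differed by 0.62, Mmp7 by 0.11 and Mmp9 by −0.43. The fat storage list had a median of 0.80 in the epithelium, against 0.25 for all genes there.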

How the data were processed

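The series holds 36 Affymetrix Mouse Genome 430 2.0 arrays, of which the 12 stroma arrays of BPA and EE2 were compared. The deposited values are linear intensity values that the authors obtained from GCOS according to the labels, while the methods describe RMA and log values. Which scaling was applied is not settled here, and the 2%-trimmed means of the 12 arrays ranged from 85.1 to 183. Groups were read from the labels. Control probe sets (64) were left out, log2 was taken after setting a floor of 0.1, under which 10 values lay. GEO's platform annotation gave 1 gene symbol to 34945 probe sets, several to 932 and none to 9160. Symbols were updated through RefSeq.

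The difference, BPA minus EE2, was fitted with genotype as a covariate in limma 3.58.1 (R 4.3.3, statmod 1.5.0) and adjusted by Benjamini-Hochberg over 45037 probe sets. Fits over 4 and 8 groups gave the contrasts of genotype and compartment. Array measures were tested by exact permutation within genotype. The fit was tested on simulated data. High muscle signal means at least 10 times the median summed signal of the 12 arrays.

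Named genes had 1 symbol, a mean signal of at least 100, a difference of at least 1 and at most 1 array out of order. Of these the 12 of smallest p higher after BPA were taken, and the 8 that passed higher after EE2. To these were added the 2 of smallest p in each direction at any signal, 8 measured genes of the study's stroma tables, and members of 29 lists with p under 0.05, or the 2 of smallest p. Members and lists were chosen with earlier results of these data known. Some genes are not reported here. Precision is limited by how many arrays there are. Promoter windows came from RefSeq (GRCm38.p6). No file held the authors' own comparisons. Alternatives covered scaling, floor, filter, variance model, covariates, replicate blocks, the methods' t-test and arrays left out, of which 2 combinations were chosen after seeing the data. Vehicle arrays entered no comparison beyond 1 alternative fit.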

Additional observations from a re-analysis of the deposited data

Results flagged for a closer look

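Of 162 groups of 6 arrays examined, 13 held an array far from the others by Dixon's test, and chance flags about 1 group in 20. The dim array, ERα(+/+) BPA replicate 3, was the low one of the BPA arrays in 6 of them. Its signals were 25 for Comtd1 (the other 5 arrays 107 to 179), 1.6 for Tent4a (90.8 to 143), 194.2 for Vcan (519 to 828), 0.6 for Itgam (4 to 9.2), 24.3 for Mfap2 (360.1 to 1034) and 17.4 for Tln2 (81.4 to 175). These 6 genes differ in function, from a matrix proteoglycan (Vcan) and a microfibril protein (Mfap2) to an integrin of myeloid cells (Itgam).

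A muscle array stood apart in 4 groups. On ERα(−/−) BPA replicate 1 the summed skeletal muscle signal was 40198.5, against 436 to 1078 on the other 5 BPA arrays, and Col5a3 was 1431.9, against 343 to 545. On ERα(+/+) EE2 replicate 2 Rnf215 was 11.5, against 29.2 to 43 on the other 5 EE2 arrays, and Ndufs1 was 67.2, against 293.5 to 504.5. The last 3 groups held a low EE2 array without high muscle signal. ERα(−/−) EE2 replicate 2 had 39.8 for Tent4a (158 to 238 on the others) and 7.7 for Mmp7 (14.8 to 20.8), and ERα(+/+) EE2 replicate 1 had 1.6 for Mmp9 (10.2 to 18.2). The part of muscle tissue or of array brightness in these values was not tested.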

How the results depend on the processing

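The count of 0 probe sets past adjusted p became 1 without the dimmest array (Gm4432) and 1 by the methods' t-test after Benjamini-Hochberg adjustment, at a change of at least 2 times (a probe set with no single symbol). It was 0 to 1 when each array was left out, the 1 coming from ERα(+/+) BPA replicate 3. The count at an unadjusted p under 0.05, 2008, was 419 with a mean signal of at least 100 (13898 probe sets), 3097 with array weights, 3040 with the array median as a covariate (1218 higher after BPA, 1822 lower) and 3157 without the dimmest array. Leaving out each array gave 1758 to 3157, the highest again without ERα(+/+) BPA replicate 3. In the other settings these counts stayed within 1.5 times, and the cause of the changes was not tested.

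With the replicate block, 0 probe sets passed the adjusted p and 2038 the unadjusted one. Same-numbered arrays of the other exposure and same genotype had residual correlations of −0.07 to 0.07, 0 of 6 pairs over 0.1. Among them 3 of 12 arrays correlated best with their own number. Same-numbered arrays of the same exposure and other genotype, which could be littermates, had −0.10 to 0.02. Of these 0 of 6 pairs were over 0.1, and 2 of 12 arrays correlated best with their own number. The numbers showed no pairing in either kind, and whether arrays shared a litter is not known.

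Of 78 named genes, 52 could be run in all 29 settings and 26 in all but 1, that of a mean signal of at least 100. In those run 72 kept their direction, and 6 whose differences were small turned. The Gapdh ratio, too, turned without the muscle arrays, to 0.030. Without the muscle arrays Tnc was 0.024 and Rps6 −0.020, and without the dimmest array as well they were 0.14 and −0.014, with Vcan at 0.29. Quantile normalization without the muscle arrays gave 0.080 for Tnc and 0.10 for Vcan. Vcan was 0.17 with array weights and 0.12 without the dimmest array, where Col5a3 was 0.028. Centring gave −0.12 for Ccnd1 and −0.0052 for Trim29, and the array median as covariate −0.063 for Ccnd1. With each array left out, Tnc ranged from −0.35 to 0.0019, Vcan from −0.48 to 0.12, Col5a3 from −0.35 to 0.18 and Ccnd1 from −0.074 to 0.36. Of 29 list medians, 21 moved by less than 1 SD in each setting.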
